A study of Homo sapiens with 6 samples.

Results

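The 43 genes described here are components of transforming growth factor beta (TGF-beta) and bone morphogenetic protein (BMP) signaling, chosen by name among 60617 genes and followed in 3 groups of melanoma cells. By their usual assignment, 18 genes belong to the TGF-beta and activin arm, 18 to the BMP arm, and 7 serve both. 1205Lu is a human melanoma cell line, and 1205LuTR cells, its derivative with a GAL4-ELK1 reporter, gave all 6 libraries. Parental cells (drug-sensitive) were given DMSO, the solvent. PBRT15 and PBRT16 cells, labelled by the paper as generated in vivo, were each grown from 1 tumor resistant to a paradox breaker. They were kept in 500 nM PLX8394, a BRAF inhibitor of that class. Every PBRT library was drug-treated and no parental one was, so the effects of the line, of its time in vivo and of the drug cannot be told apart. Each group had 2 libraries that no source describes as separate cultures. The p-values therefore reflect the spread between libraries alone, which may be technical. Both comparisons with parental cells use the same 2 parental libraries.

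Ligands of this family are secreted as dimers and bind pairs of type II and type I receptor kinases. TGF-beta and activin receptors phosphorylate SMAD2 and SMAD3, BMP receptors phosphorylate SMAD1, SMAD5 and SMAD9, and both kinds of receptor-activated SMAD enter the nucleus with SMAD4. TGF-beta is stored in the matrix in a latent complex with latent TGF-beta binding proteins (LTBPs). Inhibitors such as SMAD6 and SMAD7 are induced by the signal and dampen it, and the ID genes are classical BMP targets. In melanoma the pathway is known for its links to invasion, matrix production and the dedifferentiated state.

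RNA was measured by paired-end sequencing of stranded mRNA libraries, and the deposited table gave 1 normalized value per gene and library. The values summed to 27877963 to 29580752 per library. They were not whole reads, and the commonest low value, close to that of 1 read, was 0.907 to 1.07. Differences below are on the log2(value + 1) scale, which understates the change of genes with low values. Tests are limma with Benjamini-Hochberg adjustment over 16555 genes. The words rose and fell are kept for genes whose adjusted p was 0.05 or less. SOX10, a neural crest transcription factor and the check of the cell lines, had values of 4360 and 4103 in parental cells and at most 1.49 in the 4 PBRT libraries. Of 7 melanocytic markers the sum was 12310 to 15490 in parental cells, 847 to 952 in PBRT15 and 2203 to 2240 in PBRT16, with TYR at 0 in every library. Of the 5 tested, 2 fell, 1 rose and 2 were not called in each line.

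More members rose than fell in both resistant lines. Among 41 tested members, PBRT15 had 24 that rose and 4 that fell, where 21.6% of all tested genes rose and 19.5% fell. PBRT16 had 20 that rose and 7 that fell, where 21.1% of all tested genes rose and 19% fell. Without PBRT16 replicate 1, 4 members fell in PBRT16. The median difference over these 41 genes was 0.91 in PBRT15 and 0.71 in PBRT16, where that of all tested genes was -0.0057 and -0.0021. Of the other members, GREM1, a secreted BMP antagonist, was listed at 0 in all 6 libraries, and TGFB2, a TGF-beta ligand, stayed below the filter with values of 3.27 to 7.67. Because the filter keeps genes by their highest libraries, these counts cover the members that passed and not all 43. Since bulk RNA was measured, a change in the share of cells and a change in RNA per cell cannot be told apart.

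In the TGF-beta and activin arm, PBRT15 had 12 of 17 tested members that rose and 1 that fell (median difference 1.21), and PBRT16 had 11 that rose and 3 that fell (median 1.04). In the BMP arm, PBRT15 had 9 of 17 that rose and 3 that fell (median 1.71), and PBRT16 had 6 that rose and 4 that fell (median -0.02). Of the 7 shared members, 3 rose in each line and 4 were not called. Across both lines 19 members rose in each, 3 fell in each (ACVR1, ID4 and PMEPA1), and BMPR1B moved in opposite directions. The counts within each line have the same background, the shares of all tested genes given above. No such share is given for the counts across both lines, which rest on the same parental libraries. No test compared the arms with each other.

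**Figure D1:**
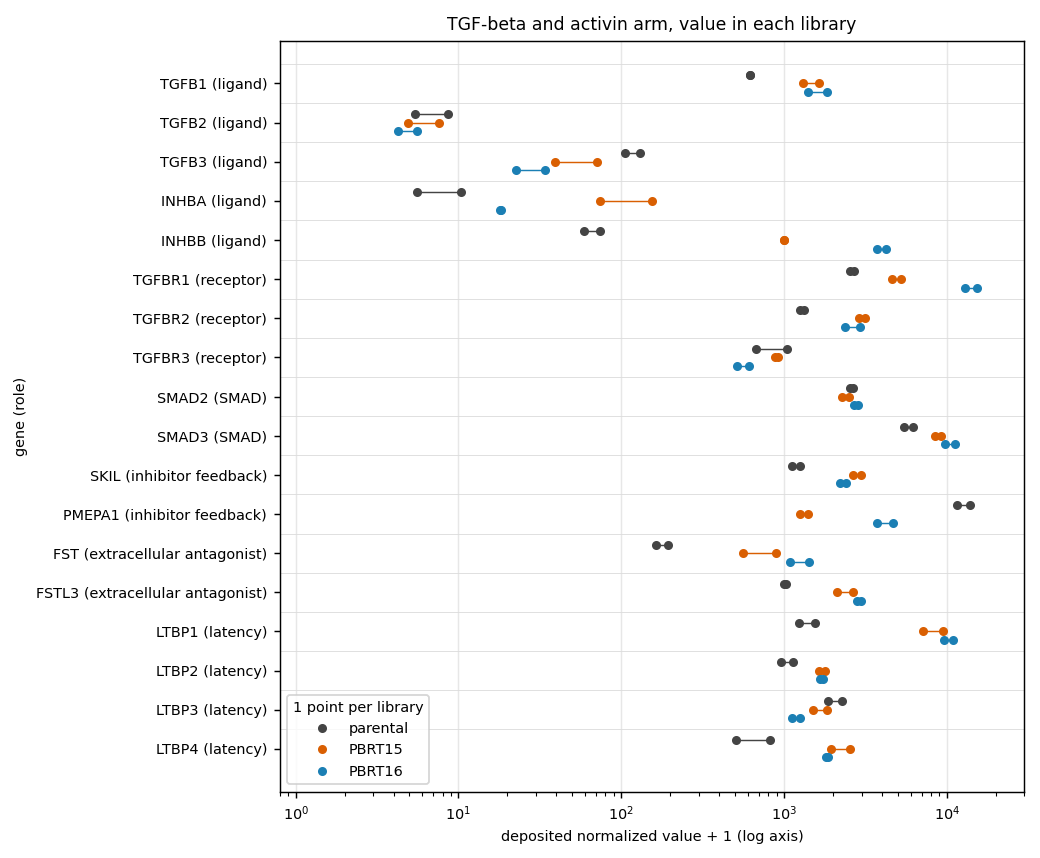
Values of the 18 TGF-beta and activin arm members in each library, as deposited value + 1 (log axis), each library a point and each group's 2 points joined by a line. INHBB, LTBP1 and TGFBR1 lie higher in all 4 PBRT libraries than in the parental ones, and PMEPA1 lies lower.

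Among the TGF-beta ligands, TGFB1, the main isoform, rose in both lines. Its values were 617 and 615 in the parental libraries, 1314 and 1641 in those of PBRT15 and 1395 and 1834 in those of PBRT16, so all 4 PBRT libraries exceeded both parental ones, by 1.25 (SE 0.19, adjusted p = 0.00787) in PBRT15 and 1.37 (SE 0.19, adjusted p = 0.00597) in PBRT16. TGFB3, another isoform, went the other way, from 105 and 129 in the parental libraries, 70.1 and 38.2 in those of PBRT15 and 21.6 and 33 in those of PBRT16. It fell in PBRT16 by 2.08 on the log2 scale (adjusted p = 0.0112), and its difference in PBRT15 was -1.15 (adjusted p = 0.0579). The PBRT16 call was lost without PBRT16 replicate 1 (0.0507) or parental replicate 2 (0.0563), and without PBRT15 replicate 1 the PBRT15 difference passed (0.0358). Per kilobase of transcript, TGFB1 made up 85.2% to 87.5% of the summed TGFB1, TGFB2 and TGFB3 level in parental cells and 95.7% to 98.7% in the 4 PBRT libraries.

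INHBB had the largest difference of the member ligands in both lines on the log2(value + 1) scale, while in PBRT15 the ratio of means was 15.3 for INHBB and 16.1 for INHBA. INHBB, the beta B subunit of activins and inhibins (GRCh38 chromosome 2, 120346136 to 120351803, plus strand), had values of 73.1 and 58 in the parental libraries, 1003 and 1006 in those of PBRT15 and 4263 and 3704 in those of PBRT16. The groups did not overlap, and the PBRT16 mean was 60.8 times the parental one, with differences of 3.93 (SE 0.16, adjusted p = 0.000213) and 5.91 (SE 0.16, adjusted p = 7.97e-05). INHBA, the beta A subunit, was low in parental cells, and its values were 4.59 and 9.42 in the parental libraries, 72.8 and 153 in those of PBRT15 and 17.4 and 17 in those of PBRT16. INHBA passed the filter only through the PBRT libraries, which limits its tests against parental cells. It rose in PBRT15 by 3.80 (SE 0.46, adjusted p = 0.00373). In PBRT16 it lay above both parental libraries but did not pass the test (difference 1.25, adjusted p = 0.0855). PBRT16 thus held the higher INHBB level and PBRT15 the higher INHBA level, and both differences between the lines passed the test, as given with the other differences between the lines.

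Among the 4 latency proteins, 3 rose in each line, and LTBP3 fell in PBRT16. LTBP1, which binds latent TGF-beta to the matrix (chromosome 2, 32946953 to 33399509, plus strand), showed 1233 and 1550 in the parental libraries, 9470 and 7140 in those of PBRT15 and 10874 and 9641 in those of PBRT16. Its mean was 5.97 times the parental one in PBRT15 and 7.37 times in PBRT16 (differences of 2.57 (SE 0.21, adjusted p = 0.00122) and 2.89 (SE 0.21, adjusted p = 0.0009)). LTBP4 rose as well, from 504 and 815 in parental cells to 1942 and 2560 in PBRT15 and 1855 and 1815 in PBRT16, by 1.80 (adjusted p = 0.00779) and 1.52 (adjusted p = 0.0128). LTBP2, which does not bind TGF-beta itself, rose by 0.71 in each line (adjusted p = 0.0151 in both). LTBP3, a partner of TGF-beta in the latent complex, had 2280 and 1858 in the parental libraries, 1511 and 1840 in those of PBRT15 and 1121 and 1250 in those of PBRT16 and fell only in PBRT16 by the test, by 0.80 (adjusted p = 0.0219), while its PBRT15 difference was -0.30 (adjusted p = 0.222) and the difference between the lines did not pass (adjusted p = 0.129). Some calls were lost when 1 library was left out, at differences of 0.59 to 0.74 for LTBP2, -0.65 to -0.88 for LTBP3 and 1.50 to 1.53 for LTBP4. LTBP2 was lost in PBRT15 without parental replicate 1 (0.0678) or PBRT15 replicate 2 (0.0661), and in PBRT16 without parental replicate 1 (0.068) or PBRT16 replicate 1 (0.0717) or 2 (0.0618). LTBP3 was lost without parental replicate 1 (0.0942) or PBRT16 replicate 1 (0.0952) or 2 (0.0666), and LTBP4 in PBRT16 without PBRT16 replicate 1 (0.0584) or 2 (0.0571). Per kilobase of transcript, LTBP3 was 41.7% to 53.8% of the summed LTBP level in parental cells and 9.34% to 17.3% in the PBRT libraries, where LTBP1 took 49.8% to 67.3%.

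**Figure D2:**
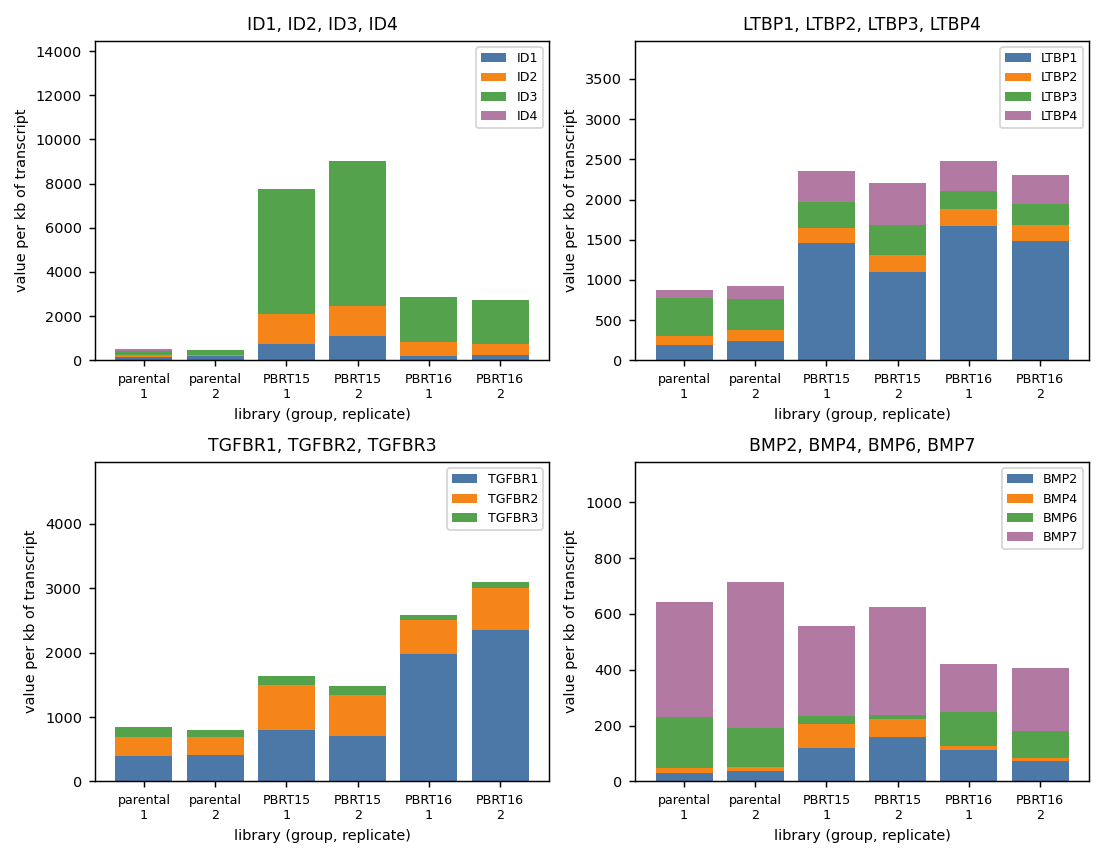
Deposited value per kilobase of transcript in each library, stacked by gene, for the ID genes, the LTBPs, the TGF-beta receptors and the BMP ligands. ID3 forms most of its stack in the PBRT libraries, LTBP1 forms 49.8% to 67.3% of its own there, TGFBR1 forms 75.9% to 76.5% of its stack in PBRT16, and BMP7 is the tallest BMP segment in every library.

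TGFBR1 and TGFBR2 rose in both lines. TGFBR1, the type I receptor (chromosome 9, 99104038 to 99154192, plus strand), had 2540 and 2680 in the parental libraries, 5206 and 4602 in those of PBRT15 and 12865 and 15284 in those of PBRT16. It was raised in PBRT15 by 0.91 (SE 0.15, adjusted p = 0.00869) and in PBRT16 by 2.43 (SE 0.15, adjusted p = 0.000554), with all 3 groups apart. TGFBR2, the type II receptor, reached similar levels in both lines, with 1333 and 1254 in the parental libraries, 3127 and 2870 in those of PBRT15 and 2384 and 2951 in those of PBRT16, by 1.21 (adjusted p = 0.00421) in PBRT15 and 1.04 (adjusted p = 0.00672) in PBRT16. The 95% interval of its difference between the lines ran from -0.57 to 0.22. TGFBR3, the co-receptor betaglycan, did not pass in either line (differences 0.11 and -0.57), though without parental replicate 2 its PBRT16 difference passed (adjusted p = 0.036). ACVR2A, a type II receptor for activins that also takes BMPs, stepped up from 192 and 158 in parental cells to 303 and 309 in PBRT15 and 548 and 618 in PBRT16. Its rise was 0.81 in PBRT15 (adjusted p = 0.0127), lost without parental replicate 2 (0.0534) or PBRT15 replicate 1 (0.0503) or 2 (0.0555), and 1.73 in PBRT16 (adjusted p = 0.00147).

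**Figure D3:**
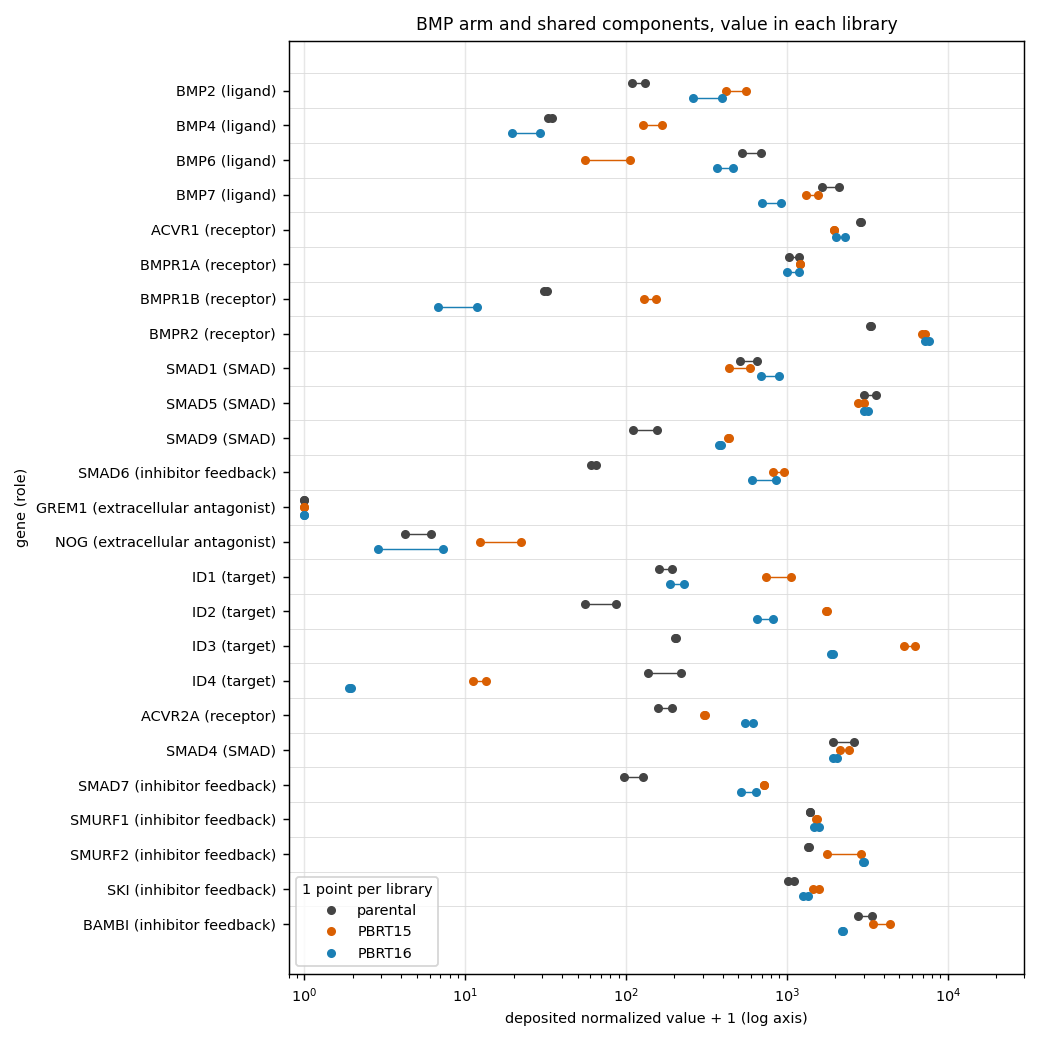
Values of the 18 BMP arm members and the 7 shared members in each library, as deposited value + 1 (log axis), each library a point and each group's 2 points joined by a line. ID2, ID3 and SMAD6 lie far above parental cells in both lines, ID4 lies below, and BMPR1B lies above in PBRT15 and below in PBRT16.

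BMP receptors split by gene. BMPR2, the type II receptor, had 3318 and 3300 in the parental libraries, 6973 and 7248 in those of PBRT15 and 7187 and 7671 in those of PBRT16 and rose by 1.10 (SE 0.11, adjusted p = 0.00224) in PBRT15 and 1.17 (SE 0.11, adjusted p = 0.00193) in PBRT16. Its levels in the 2 lines differed by 0.06 (95% interval -0.22 to 0.35). BMPR1B, a type I receptor (chromosome 4, 94757955 to 95158448, plus strand), had 30.1 and 31.2 in the parental libraries, 152 and 127 in those of PBRT15 and 5.76 and 10.9 in those of PBRT16. It rose in PBRT15 by 2.15 (SE 0.29, adjusted p = 0.0054) and fell in PBRT16 by 1.82 (SE 0.29, adjusted p = 0.00883), the only member called in opposite directions. BMPR1A, the other classical type I BMP receptor, had values between 997 and 1210 throughout and passed in neither line (differences 0.13 and -0.02). ACVR1, a type I receptor used by BMPs, was lower in all 4 PBRT libraries (1960 to 2285) than in the parental ones (2845 and 2905) and fell by 0.55 (adjusted p = 0.0212) and 0.42 (adjusted p = 0.0454). These ACVR1 calls were weak, since the PBRT15 one was lost without any 1 of the 4 libraries compared (parental replicate 1, 0.081, or 2, 0.0856; PBRT15 replicate 1, 0.0717, or 2, 0.0754) and the PBRT16 one without any 1 of the 6 libraries (0.0707 to 0.179).

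Of the 4 BMP ligands, BMP2 and BMP4 rose and BMP6 fell in PBRT15, and BMP2 rose and BMP7 fell in PBRT16. BMP2 rose in both, with 107 and 130 in the parental libraries, 419 and 559 in those of PBRT15 and 395 and 261 in those of PBRT16, by 2.02 (adjusted p = 0.00509) and 1.43 (adjusted p = 0.0141), the latter lost without parental replicate 1 (0.0722). BMP4 had 33.6 and 31.9 in the parental libraries, 167 and 126 in those of PBRT15 and 28.2 and 18.4 in those of PBRT16. It was raised in PBRT15 by 2.11 (SE 0.25, adjusted p = 0.0037), whereas its PBRT16 libraries lay slightly below the parental ones without passing (difference -0.50, adjusted p = 0.174). BMP6 showed 688 and 527 in the parental libraries, 105 and 54.4 in those of PBRT15 and 459 and 367 in those of PBRT16. It fell in PBRT15 by 2.97 (adjusted p = 0.00372) and its difference in PBRT16 was -0.55 (adjusted p = 0.267). BMP7, the most abundant of the 4 per kilobase, had 1664 and 2101 in the parental libraries, 1307 and 1565 in those of PBRT15 and 699 and 913 in those of PBRT16 and fell in PBRT16 by 1.23 (adjusted p = 0.0109; 0.0509 without parental replicate 2), against a PBRT15 difference of -0.39 (adjusted p = 0.203). Of the summed BMP ligand level per kilobase, BMP7 held 64.3% to 73.1% in parental cells, 58.3% to 62.1% in PBRT15 and 41.3% to 55.8% in PBRT16.

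Of the 6 SMADs that carry the signal, 2 rose in each line and 4 passed in neither. Of all tested genes, 21.6% rose in PBRT15 and 21.1% in PBRT16. SMAD3 (TGF-beta arm) had 6201 and 5452 in the parental libraries, 8466 and 9176 in those of PBRT15 and 11244 and 9778 in those of PBRT16 and rose by 0.60 in PBRT15 (adjusted p = 0.0268) and 0.85 in PBRT16 (adjusted p = 0.00976). Its PBRT15 call was lost without parental replicate 1 (0.0631) or 2 (0.11) or PBRT15 replicate 1 (0.0673) or 2 (0.103), and its PBRT16 call without PBRT16 replicate 1 (0.0509). SMAD9 (BMP arm) had 155 and 110 in the parental libraries, 437 and 429 in those of PBRT15 and 379 and 389 in those of PBRT16 and rose by 1.72 (adjusted p = 0.00291) and 1.55 (adjusted p = 0.00401). SMAD1, SMAD2, SMAD4 and SMAD5 passed in neither line, with differences from -0.19 to 0.44. For SMAD4, the partner of both arms, the 95% intervals ran from -0.46 to 0.51 in PBRT15 and from -0.66 to 0.31 in PBRT16.

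Among 8 feedback inhibitors, 4 rose and 1 fell in each line. SMAD6, the inhibitory SMAD that acts mainly on BMP receptors (chromosome 15, 66702236 to 66782849, plus strand), had 63.7 and 59.4 in the parental libraries, 956 and 821 in those of PBRT15 and 861 and 605 in those of PBRT16. All 4 PBRT libraries lay far above both parental ones, with means 14.4 and 11.9 times the parental one (differences of 3.83 (SE 0.21, adjusted p = 0.000436) and 3.53 (SE 0.21, adjusted p = 0.000543)). SMAD7, which inhibits both arms (chromosome 18, 48919853 to 48950965, minus strand), had 126 and 96.3 in the parental libraries, 722 and 718 in those of PBRT15 and 517 and 645 in those of PBRT16 and rose by 2.70 (SE 0.19, adjusted p = 0.000889) and 2.38 (SE 0.19, adjusted p = 0.00126). SKIL, the nuclear corepressor SnoN (chromosome 3, 170357342 to 170396835, plus strand), had 1259 and 1120 in the parental libraries, 2978 and 2646 in those of PBRT15 and 2415 and 2217 in those of PBRT16 and rose by 1.24 (adjusted p = 0.00288) and 0.96 (adjusted p = 0.00601). PMEPA1, a TGF-beta target that binds and sequesters receptor-activated SMADs (chromosome 20, 57648392 to 57711536, minus strand), had the highest level per kilobase of all members in parental cells and showed values of 13810 and 11509 in the parental libraries, 1253 and 1413 in those of PBRT15 and 3753 and 4659 in those of PBRT16. It fell in PBRT15 to 0.105 of its parental mean (difference -3.24, SE 0.18, adjusted p = 0.000436) and in PBRT16 to 0.332 (difference -1.59, SE 0.18, adjusted p = 0.00301).

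The 250 bases before the RefSeq start sites of these 3 risen inhibitors (GRCh38.p14, 5′ to 3′ on the gene's strand) are shown because the genes rose together and are known SMAD targets. Capitals mark matches on either strand to GTCTAGAC, the palindromic SMAD element, to GTCTG, a SMAD-binding element (CAGAC on the other strand), or to GGCGCC, a GC-rich element bound by SMADs. No match to one of these overlaps another in the windows shown.
SMAD6, chr15:66701986-66702235, plus strand: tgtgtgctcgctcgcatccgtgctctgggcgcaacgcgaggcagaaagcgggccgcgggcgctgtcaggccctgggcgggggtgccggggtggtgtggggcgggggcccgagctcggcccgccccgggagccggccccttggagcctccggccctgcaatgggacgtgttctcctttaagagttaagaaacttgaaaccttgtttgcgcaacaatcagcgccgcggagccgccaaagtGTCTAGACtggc
SMAD7, chr18:48950966-48951215, minus strand: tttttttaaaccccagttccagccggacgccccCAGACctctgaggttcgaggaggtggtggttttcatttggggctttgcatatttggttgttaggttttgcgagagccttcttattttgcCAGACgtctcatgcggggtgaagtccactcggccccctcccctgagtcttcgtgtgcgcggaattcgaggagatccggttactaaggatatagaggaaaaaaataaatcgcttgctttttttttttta
SKIL, chr3:170357465-170357714, plus strand: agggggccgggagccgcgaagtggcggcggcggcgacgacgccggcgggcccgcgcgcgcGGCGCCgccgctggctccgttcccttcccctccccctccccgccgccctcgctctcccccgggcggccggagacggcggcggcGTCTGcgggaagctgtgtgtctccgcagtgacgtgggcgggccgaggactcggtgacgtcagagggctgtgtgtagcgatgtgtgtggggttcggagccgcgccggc
The SMAD6 window holds GTCTAGAC, starting 12 bases before the start site. That element occurred in 0.182% of 35116 windows of this length and in 1 of the 73 windows of the 39 members with a window in the promoter set used. The SMAD7 window shown, that of the most upstream of its 3 RefSeq starts, holds 2 copies of CAGAC, at 217 and 128 bases before the start. The window at chr18:48949334-48949583 holds 1 GTCTG, at 193, and the window at chr18:48942808-48943057 holds none of these letters. SKIL holds GTCTG at 107 and GGCGCC at 190. The inhibitor PMEPA1, which fell in both lines, also has such letters in separate windows (GGCGCC at 207, CAGAC at 115 and at 71). Its window at chr20:57710016-57710265 holds none of them. GTCTG occurred in 38.0% of all windows and in 29 of the 73 member windows, and GGCGCC in 16.4% and in 18. The member windows were richer in G and C than the others (median 63.6% against 58.0%). A match is a run of letters and not a measured binding site.

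Of the remaining inhibitors, SKI, a corepressor related to SKIL, rose in PBRT15 by 0.52 (adjusted p = 0.0258), with values of 1016 and 1103 in the parental libraries, 1585 and 1463 in those of PBRT15 and 1345 and 1252 in those of PBRT16. This call was lost without parental replicate 1 (0.111) or 2 (0.0683) or PBRT15 replicate 1 (0.0944) or 2 (0.0625), and the PBRT16 difference was 0.29 (adjusted p = 0.116). SMURF2, a ubiquitin ligase for receptors and SMADs, had 1356 and 1365 in the parental libraries, 2889 and 1787 in those of PBRT15 and 3015 and 2954 in those of PBRT16. It rose in PBRT16 by 1.13 (adjusted p = 0.0211), lost without parental replicate 1 (0.087) or 2 (0.0803) or PBRT16 replicate 1 (0.0822) or 2 (0.0812). In PBRT15 its difference of 0.74 did not pass (adjusted p = 0.0668) but did without PBRT15 replicate 2 (0.0134). SMURF1, the related ligase, had values between 1394 and 1573 and passed in neither line, and BAMBI, a decoy receptor, passed in neither (differences 0.34 and -0.47).

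Secreted antagonists of the activins rose in both lines. FST, follistatin, which binds activins, had 194 and 164 in the parental libraries, 899 and 555 in those of PBRT15 and 1417 and 1086 in those of PBRT16 and rose by 1.98 (adjusted p = 0.00641) and 2.79 (adjusted p = 0.00241). FSTL3, a follistatin-like activin inhibitor, had 998 and 1025 in the parental libraries, 2641 and 2122 in those of PBRT15 and 2982 and 2799 in those of PBRT16 and rose by 1.23 (adjusted p = 0.00384) and 1.51 (adjusted p = 0.00216). NOG, noggin, a BMP antagonist, was low in every library (1.87 to 21.3). Its PBRT15 difference of 1.71 did not pass (adjusted p = 0.0598). NOG met the filter only through the PBRT15 libraries, so its test in PBRT15 could find nothing but a rise.

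ID3 and ID2 rose most of all members in PBRT15, and ID4 fell most in both lines. The ID genes encode inhibitors of basic helix-loop-helix factors. ID3 (chromosome 1, 23557926 to 23559501, minus strand) had 202 and 202 in the parental libraries, 5359 and 6264 in those of PBRT15 and 1925 and 1881 in those of PBRT16, 28.8 times the parental mean in PBRT15 and 9.42 times in PBRT16 (differences of 4.84 (SE 0.13, adjusted p = 7.95e-05) and 3.23 (SE 0.13, adjusted p = 0.000192)). ID2 had 85.2 and 54.6 in the parental libraries, 1760 and 1779 in those of PBRT15 and 823 and 650 in those of PBRT16, with differences of 4.68 (SE 0.25, adjusted p = 0.000432) and 3.40 (SE 0.25, adjusted p = 0.001). ID1 had 160 and 193 in the parental libraries, 736 and 1061 in those of PBRT15 and 187 and 229 in those of PBRT16. It rose in PBRT15 by 2.32 (SE 0.23, adjusted p = 0.0023), and in PBRT16 its 2 libraries overlapped the parental ones (difference 0.23, 95% interval -0.37 to 0.84, adjusted p = 0.463). ID4 (chromosome 6, 19837370 to 19842197, plus strand) went against the other ID genes, with 220 and 136 in the parental libraries, 10.1 and 12.4 in those of PBRT15 and 0.903 and 0.939 in those of PBRT16. It fell in PBRT15 by 3.83 (SE 0.26, adjusted p = 0.000769) and in PBRT16 by 6.50 (SE 0.26, adjusted p = 0.000194). The PBRT16 values are near that of 1 read, so this size depends on the number added before taking logs (-6.93 with 0.5 added and -4.07 with 10 added).

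Per kilobase of transcript, the summed level of the 4 ID genes was 498 and 486 in the parental libraries, 7748 and 9045 in those of PBRT15 and 2850 and 2713 in those of PBRT16. ID3 held 42.6% to 43.8% of it in parental cells and 71.1% to 73.0% in the PBRT libraries, while ID1 went from 32.8% to 40.4% in parental cells to 6.68% to 11.9% in the PBRT libraries. The 250 bases before the start sites of ID3 and ID4 are given because these genes moved in opposite directions, marked as above.
ID3, chr1:23559502-23559751, minus strand: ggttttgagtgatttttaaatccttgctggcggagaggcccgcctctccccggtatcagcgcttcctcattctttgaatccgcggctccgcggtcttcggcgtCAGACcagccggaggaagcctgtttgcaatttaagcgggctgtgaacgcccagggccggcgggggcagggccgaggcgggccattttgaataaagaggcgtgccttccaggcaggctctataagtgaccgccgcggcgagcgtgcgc
ID4, chr6:19837120-19837369, plus strand: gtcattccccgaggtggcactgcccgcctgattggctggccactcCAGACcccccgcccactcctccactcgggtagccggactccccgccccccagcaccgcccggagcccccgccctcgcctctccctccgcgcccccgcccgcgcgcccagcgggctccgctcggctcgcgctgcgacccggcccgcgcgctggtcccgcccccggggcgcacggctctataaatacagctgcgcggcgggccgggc
Each holds 1 CAGAC, at 147 bases before the start in ID3 and at 205 in ID4, and neither holds GTCTAGAC or GGCGCC. The windows of ID1 and ID2, which both rose in PBRT15, hold none of these letters.

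**Figure D4:**
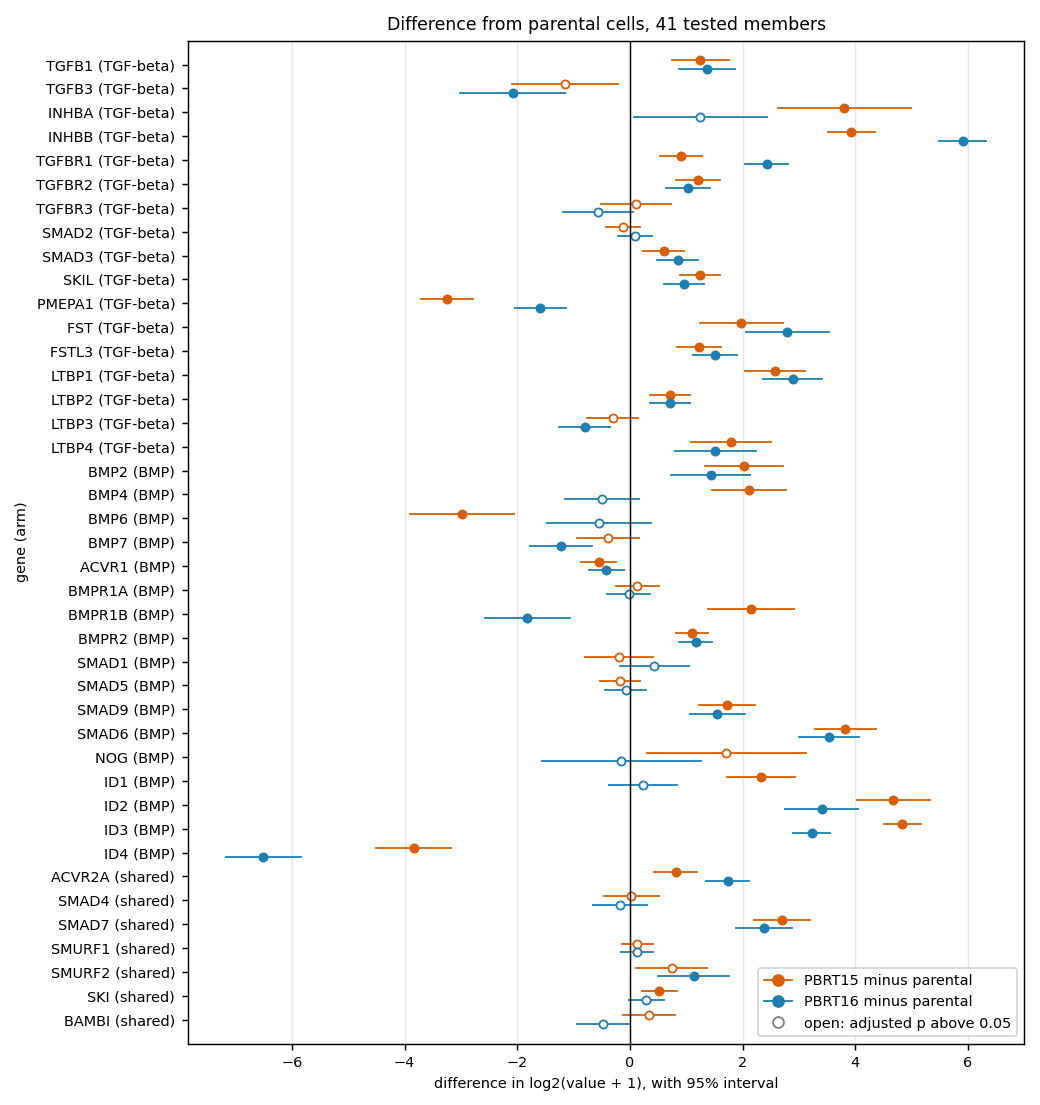
Difference of each resistant line from parental cells for the 41 tested members on the log2(value + 1) scale, with bars for the 95% interval; open points have an adjusted p above 0.05. Most filled points lie right of 0 in both lines, with ID2, ID3, INHBB and SMAD6 beyond 3, and ID4 and PMEPA1 lie left of 0.

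The lines also differed from each other. In PBRT16 against PBRT15, 5 of 41 members were higher and 8 lower, where 7.5% of all tested genes were higher and 8.28% lower. Only 3 were higher without PBRT15 replicate 1 or PBRT16 replicate 1 or 2, and the lower ones were 5 without PBRT15 replicate 2 or PBRT16 replicate 2 and 4 without PBRT16 replicate 1. The BMP arm supplied 1 of the higher and 6 of the lower members, with a median difference of -0.59, and the TGF-beta and activin arm 3 and 1, with a median of 0.12. All 4 ID genes were lower in PBRT16, ID3 by 1.61 (adjusted p = 0.0042), ID1 by 2.09 (adjusted p = 0.00948), ID2 by 1.27 (adjusted p = 0.0358) and ID4 by 2.67 (adjusted p = 0.00689). The ID4 size depends on the number added before taking logs (-3.04 with 0.5 added and -0.96 with 10 added). ID2 lost this call without PBRT15 replicate 1 (0.127) or 2 (0.117) or PBRT16 replicate 1 (0.0925) or 2 (0.142), and ID1 without PBRT16 replicate 1 (0.0523). The receptor BMPR1B was lower by 3.97 (adjusted p = 0.0036) and the ligand BMP4 by 2.62 (adjusted p = 0.00692). BMP6 ran the other way, higher in PBRT16 by 2.42 (adjusted p = 0.0183), a call lost without PBRT16 replicate 1 (0.0859) or 2 (0.0684).

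In the TGF-beta and activin arm, INHBB was higher in PBRT16 by 1.98 (SE 0.16, adjusted p = 0.00448), TGFBR1 by 1.52 (SE 0.15, adjusted p = 0.00678) and PMEPA1 by 1.65 (SE 0.18, adjusted p = 0.00865). Without PBRT15 replicate 1, PMEPA1 had an adjusted p of 0.0502. INHBA was lower in PBRT16 by 2.55 (adjusted p = 0.0285), lost without PBRT15 replicate 2 (0.0764) or PBRT16 replicate 1 (0.109) or 2 (0.113). Of the shared members, ACVR2A was higher in PBRT16 by 0.92 (adjusted p = 0.022), lost without PBRT15 replicate 1 (0.0927) or 2 (0.0789) or PBRT16 replicate 1 (0.0769) or 2 (0.102). BAMBI, with 3387 and 2785 in the parental libraries, 3446 and 4381 in those of PBRT15 and 2187 and 2234 in those of PBRT16, was lower in PBRT16 by 0.81 (adjusted p = 0.0438), and any 1 library left out ended this call (0.0631 to 0.155). SMAD6, SMAD7, BMPR2, SMAD9, LTBP1 and TGFB1 did not pass between the lines. Their 95% intervals reached no further than 0.85 from 0.

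**Figure D5:**
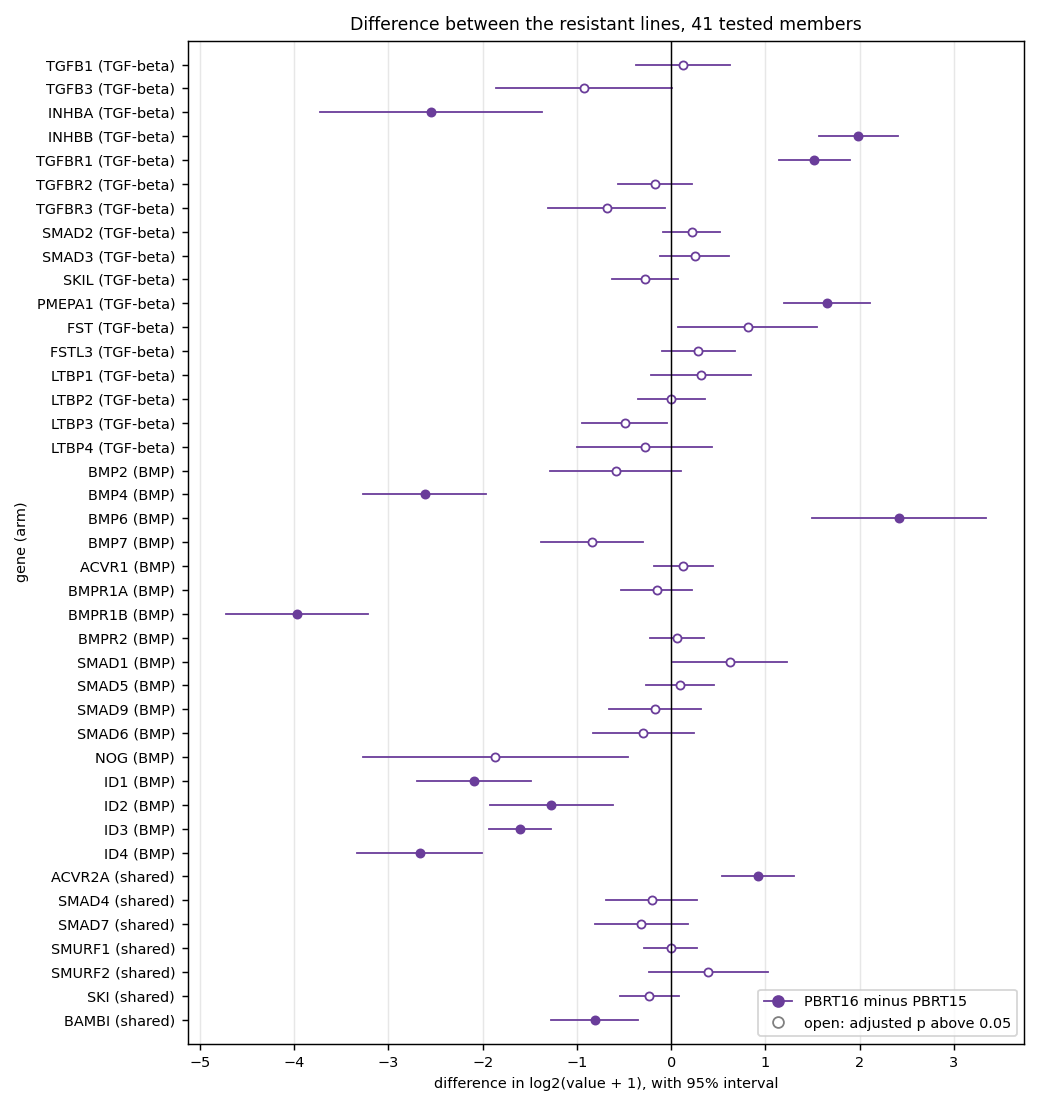
Difference between the resistant lines (PBRT16 minus PBRT15) for the 41 tested members on the log2(value + 1) scale, with bars for the 95% interval; open points have an adjusted p above 0.05. BMPR1B, ID4, BMP4, INHBA and ID1 are the filled points farthest left, and BMP6 and INHBB those farthest right.

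Pathway genes outside the 43 were counted in the same way. Of 65 listed, 47 were tested. PBRT15 had 21 that rose and 10 that fell (median 0.50), where 21.6% of all tested genes rose and 19.5% fell. PBRT16 had 15 that rose and 11 that fell (median 0.02), where 21.1% of all tested genes rose and 19% fell. Some of these genes, such as VASN and GDF5, met the filter only through PBRT libraries. Their tests against parental cells could find nothing but a rise, which adds to the counts of rises. Of 8 tested extracellular antagonists, 5 rose and 2 fell in each line. CHRDL1, a chordin-like BMP antagonist, had values of 18311 and 14300 in the parental libraries, 42.4 and 39.9 in those of PBRT15 and 49.3 and 25.6 in those of PBRT16 (differences -8.59, adjusted p = 0.000187, and -8.79, adjusted p = 0.000173). BMPER, which binds BMPs, fell by 2.30 (adjusted p = 0.00091) and 1.44 (adjusted p = 0.00331). FSTL1, a follistatin-like secreted protein, rose from 15081 and 15071 to 85582 and 61052 in PBRT15 and 137104 and 135470 in PBRT16. CRIM1, a membrane protein that tethers BMPs, rose by 2.73 (adjusted p = 0.00134) and 2.71 (adjusted p = 0.00138). VASN, vasorin, which traps TGF-beta, went from 1.08 and 0 to 162 and 216 in PBRT15 and 168 and 161 in PBRT16. It passed the filter only through the PBRT libraries, where it is high, so its test could find nothing but a rise.

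Other ligands and receptors also moved in both directions. BMP8B had values of 1610 and 1255 in parental cells, at most 9.12 in PBRT15 and at most 24.4 in PBRT16, but it has the near-identical copy BMP8A (25.8 to 48.8), between which reads could be split. GDF5, a BMP-like growth factor, was at 0 in the parental cells' libraries and had 20.3 and 51.6 in PBRT15 and 274 and 303 in PBRT16. Like VASN, it met the filter only through the PBRT libraries. GDF11, an activin-like ligand, rose in PBRT15 by 0.85 (adjusted p = 0.0133). The co-receptor ENG, endoglin, rose in each line (1.23, adjusted p = 0.00338, and 0.78, adjusted p = 0.0127), whereas ACVR2B, a type II activin receptor, fell (1.58 lower, adjusted p = 0.00242, and 1.50 lower, adjusted p = 0.00282), as did RGMB, a BMP co-receptor. Among 8 tested genes of latency and activation, FBN1, the fibrillin that anchors latent complexes, rose from 8431 and 8017 to 24068 and 19851 in PBRT15 and 23205 and 24745 in PBRT16, and ITGAV, the integrin alpha V chain, rose by 1.00 and 0.82 (adjusted p = 0.00407 and 0.00727). ITGB8, its beta 8 partner in freeing TGF-beta, had 17580 and 14625 in the parental libraries, 741 and 1612 in those of PBRT15 and 3712 and 5976 in those of PBRT16 and fell by 3.87 (adjusted p = 0.00325) and 1.77 (adjusted p = 0.0317). Most of the 14 intracellular regulators were not called (9 in PBRT15 and 11 in PBRT16). In PBRT15 2 rose and 3 fell, and in PBRT16 1 rose and 2 fell. Among those that fell, TGIF1, a corepressor of SMADs, did so in both lines (by 0.90, adjusted p = 0.00477, and 1.08, adjusted p = 0.00291). NEDD4L, a ubiquitin ligase for SMADs, fell in PBRT15 by 1.50 (adjusted p = 0.00535).

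Known target genes outside the 43 were read as a further measure. Their counts are to be read beside the shares of all tested genes (21.6% rose and 19.5% fell in PBRT15, 21.1% and 19% in PBRT16). Of 22 tested TGF-beta targets, PBRT15 had 9 that rose and 3 that fell (median 1.03), and PBRT16 10 that rose and 4 that fell (median 1.29). COL1A1, a collagen I chain, went from 13.9 and 32.7 to 60705 and 67057 in PBRT15 and 9942 and 14432 in PBRT16. TAGLN, an actin-binding protein, rose in both lines with libraries that differed widely (2130 and 663 in PBRT15, 1949 and 624 in PBRT16). Others fell, such as IL11, a cytokine, by 3.09 and 1.94 (adjusted p = 0.0013 and 0.00489), and CDKN1A, a cell cycle inhibitor, in PBRT16 only by the test, from 4268 and 5155 in parental cells to 252 and 296 (adjusted p = 0.000959). TGFBI, a matrix protein chosen after its values were seen, had 17951 and 17736 in the parental libraries, 11913 and 12684 in those of PBRT15 and 150660 and 195144 in those of PBRT16.

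Of 12 tested BMP targets outside the ID genes, PBRT15 had 6 that rose and 2 that fell (median 0.75), and PBRT16 5 that rose and 4 that fell (median -0.02). The targets named next all rose, and those that fell are counted only. GATA2, a transcription factor, had 231 and 264 in the parental libraries, 3044 and 2681 in those of PBRT15 and 899 and 725 in those of PBRT16 and rose by 3.53 (adjusted p = 0.000308) and 1.71 (adjusted p = 0.00215). ATOH8, a helix-loop-helix factor, rose by 3.26 (adjusted p = 0.00458) and 2.33 (adjusted p = 0.0124), and the homeobox gene MSX2 by 2.37 (adjusted p = 0.00297) and 2.51 (adjusted p = 0.00256). Between the lines, 5 of the 12 were lower in PBRT16 and 7 were not called, where 8.28% of all tested genes were lower.

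Several measurements moved along with these results. Mitochondrial genes took 6.15% and 6.3% of the summed values in the parental libraries, 4.09% and 4.1% in those of PBRT15 and 4.43% and 4.53% in those of PBRT16, so the groups were apart. Markers of fibroblasts summed to 6002 to 6930 in parental cells, 97820 to 105400 in PBRT15 and 18760 to 25080 in PBRT16. Of the 6 tested, PBRT15 had 6 that rose, and PBRT16 3 that rose and 2 that fell. The marker counts here are to be read beside the shares of all tested genes. Those were 21.6% risen and 19.5% fallen in PBRT15, and 21.1% risen and 19% fallen in PBRT16. COL1A1 is itself a TGF-beta target, and LUM had at most 4.12 in any library. Endothelial markers summed to 15.9 to 41.8, 249 to 250 and 32.0 to 38.3, with TEK at 242 and 215 in PBRT15. Of the 3 endothelial markers tested, 1 rose and 2 fell in PBRT15, and all 3 were not called in PBRT16. Immune markers summed to 819 to 1262, 2201 to 2727 and 2147 to 3125, nearly all CD68, while CD3E was at 0 in every library. Epithelial markers summed to 173 to 177, 174 to 251 and 115 to 150. Of the 2 epithelial markers tested, 1 fell and 1 was not called in each line. The part of the mitochondrial share and of these markers in the results was not tested.

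Position also moved with some members. The median difference of the 25 tested genes on each side of a member was over 0.5 in size for 6 members in PBRT15 and 4 in PBRT16. Around PMEPA1 it was -0.58 and -0.56, around BMP7 -0.62 and -0.55, around BMP2 0.60 and 0.54, and around FSTL3 (41 neighbours) 0.77 and 0.60. Around TGFB1 and LTBP4 it was 0.63 in PBRT15 for each, and 0.16 and 0.14 in PBRT16. Between the lines no member had such a neighbourhood. The part of neighbouring genes in the results was not tested. Reads on the other strand are a further limit. An opposite-strand gene that was also tested overlaps 10 members (among them TGFB1, TGFB3, SMAD3, PMEPA1, LTBP3, BMP6 and ID2), and no source used here gives the strand setting of the counting.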

How the data were processed

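RNA-seq of 6 libraries was used. By the paper's methods RSEM was run with a GENCODE annotation of GRCh38. STAR 2.6.1a, Picard and DESeq2 stand in the submitters' processing notes. The deposited signal is 1 normalized value per gene and library. How the authors normalized it is not stated in the sources used, and whole reads could not be recovered, so no count test was run. Low values clustered near that of about 1 read without being exact multiples of it, and their precision is limited.

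Of 60662 gene IDs, 45 pseudoautosomal copies were left out, and 60357 of 60617 matched GENCODE v44 without their version. Genes with a value, scaled to the library total, of at least 10 in 2 libraries and a total of at least 15 were tested (16555). With limma 3.58.1 (R 4.3.3), log2(value + 1) was modelled by group, with 3 residual and 1.89 prior degrees of freedom and Benjamini-Hochberg adjustment; intervals are at 95%. Motifs were searched in RefSeq promoter windows of GRCh38.p14. The fit was run on simulated data in which few genes changed and only in PBRT15, unlike these data. No result above rests on that run.

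The rule for the members uses gene names and no measured value, but the members and lists were chosen with earlier results of these data known. Every member could be named, as could SOX10 and, of each other list, the 3 largest rises and falls per comparison with parental cells among called genes with at least 5 CPM in the higher group. Alternatives were other scalings, pseudocounts, filters, thresholds, gene sets, priors and fits, the replicate number as a block, and each library left out in turn, for the members only. Some genes of the lists are counted but not reported by name here.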

Additional observations from a re-analysis of the deposited data

Results flagged for a closer look

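A test of the difference between the lines themselves (PBRT16 minus PBRT15, limma, adjusted p of at most 0.05) picked out 13 members whose change from the shared parental libraries differed between PBRT15 and PBRT16. Higher in PBRT16 on the log2(value + 1) scale were INHBB (1.98), TGFBR1 (1.52), PMEPA1 (1.65), BMP6 (2.42) and ACVR2A (0.92). Lower were the ligand subunit INHBA (-2.55), the ligand BMP4 (-2.62), the receptor BMPR1B (-3.97), the decoy receptor BAMBI (-0.81) and the BMP targets ID1 (-2.09), ID2 (-1.27), ID3 (-1.61) and ID4 (-2.67). INHBB, TGFBR1, BMP4, BMPR1B, ID3 and ID4 kept this call whichever library was left out. The size for ID4 depends on the number added before taking logs, as given above.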

How the results depend on the processing

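No called difference changed its direction in any alternative. Differences near 0 that were not called did so for 9 members. With upper-quartile scaling these were BMPR1A in PBRT16 (0.0038) and SMURF1 between the lines (0.018). Over the left-out libraries the differences ran from -0.19 to 0.25 for SMAD4, -0.20 to 0.43 for TGFBR3 and -0.40 to 0.020 for SMAD1 in PBRT15, from -0.20 to 0.045 for SMAD5, -0.15 to 0.10 for BMPR1A, -0.82 to 0.52 for NOG and -0.40 to 0.044 for SMAD4 in PBRT16, and between the lines from -0.074 to 0.32 for TGFB1, -0.057 to 0.061 for LTBP2 and -0.050 to 0.036 for SMURF1. Over leaving out each library, 21 to 25 members rose and 3 to 4 fell in PBRT15, 16 to 20 rose and 4 to 6 fell in PBRT16, and 3 to 5 were higher and 4 to 7 lower in PBRT16 than in PBRT15. Of the calls, 23 of 28, 18 of 27 and 6 of 13 were kept whichever library was left out. A group left with 1 library was assumed to vary like the others. Over the 11 other settings, 19 to 26 rose and 3 to 5 fell in PBRT15, 17 to 21 rose and 5 to 8 fell in PBRT16, and 4 to 5 were higher and 5 to 11 lower in PBRT16 than in PBRT15. The 5 lower members, against 8 as reported, came with no filter on low values, where 29717 genes were tested, and the 11 with a prior spread that followed the expression level. Under every scaling the median difference of all genes lay within 0.0251 of 0. Counting the shared members in both arms gave 15 risen in the TGF-beta and activin arm in PBRT15 and 14 in PBRT16, and 12 and 9 in the BMP arm.

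Deviations of same-numbered libraries correlated at 0.018, 0.0384 and 0.136, so the numbers were not taken to pair the samples. With the replicate number as a block, 24 rose and 4 fell in PBRT15, 21 rose and 6 fell in PBRT16, and 5 were higher and 8 lower in PBRT16 than in PBRT15. The block lost ACVR1 (0.0649) and gained INHBA (0.05) in PBRT16, and between the lines it lost BAMBI (0.0801) and gained BMP7 (0.0336), all adjusted p-values.

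With 2 libraries a group, a missed threshold says nothing on whether a member stayed the same.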
